A study of Equus caballus with 10 samples.

Results

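The genes described here are the fibroblast growth factors (FGFs), their receptors and the genes that transmit or restrain their signal, in equine tenocytes grown in 3D collagen gels. They were chosen by gene symbol. The symbols were those of the FGF ligands and receptors, the klotho co-receptors, the FGF binding proteins, the docking proteins FRS2 and FRS3, the Sprouty (SPRY) and SPRED inhibitors, IL17RD, the transcription factors ETV1, ETV4 and ETV5, and the FLRT membrane proteins. Of 29196 genes in the deposited table, 48 were members, and FGFBP1 and FGFBP2 were not analysed here. The same search also picked up FGFR1OP and FGFR1OP2, which carry the letters of a receptor in their name but encode other proteins, and these 2 are counted with the 48 but described apart.

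Tendon cells came from the superficial digital flexor tendon of 5 Thoroughbred or Thoroughbred-type horses, each horse giving 1 tenocyte line, and were passaged before they were placed in gels. In the PF group the gels received the IRAK-4 inhibitor PF-06650833 every day for 14 days at 100 nM. In the IL-1β+PF group they received the same inhibitor and, every 3 to 4 days, 17 ng/ml of the inflammatory cytokine IL-1β. Each group held 5 libraries, 1 from each of lines 1 to 5, so every difference below is between cells that all had the inhibitor, and untreated cells and cells given IL-1β alone were not analysed here. The age and sex of the horse behind each line were not given in the sources used here.

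FGFs are secreted signals that act mostly on neighbouring cells, where they bind receptor tyrosine kinases together with heparan sulphate. The active receptor phosphorylates the docking protein FRS2 and switches on the RAS-MAPK cascade, which ends in the kinase ERK. ERK raises transcription of ETV factors and of SPRY and SPRED genes, and the SPRY and SPRED proteins then dampen the same cascade. In the embryo, FGF signals from muscle induce the tendon transcription factor SCX in tendon progenitors through ETV factors, and FGF2 has been studied as a factor in tendon healing.

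Expression is given as the deposited variance-stabilized log2 value, on which 0 reads correspond to 3.433 in every library. This scale compresses differences between low values, so normalised counts recovered from it are given beside genes with few reads. Neither scale is per length, so levels are compared between libraries and not between genes. The estimated number of reads on genes lay between 26429500 and 35749700 per library. The 17992 genes with reads in 5 or more libraries were tested with limma, and p-values were adjusted over all of them (Benjamini-Hochberg). A gene was called higher or lower if its adjusted p was below 0.05 and its log2 fold change reached 1 in size (SE below is the standard error of that change). Because the 2 libraries of a line came from the same horse, the fit was repeated in limma with the line as a block (the replicate block). A value given below as by limma, with no block named, is from the fit without it.

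In bulk libraries, fewer cells of a type and less RNA per cell cannot be told apart. Of 9 tenocyte markers, SCX, MKX and COMP were called lower, and TNMD was at the value of 0 reads in all libraries. The summed normalised counts of the list were 873186 to 1443060 without IL-1β and 236357 to 991370 with it. The tendon collagen genes COL1A1 and COL1A2, not called in the fit without the block, made up most of these sums. Their means were 461987 and 443741 in the PF group, against 2465 for SCX. With the replicate block 5 of the 9 were called lower, adding COL1A1 and COL1A2. COL1A1 had a log2 fold change of -1.38 (adjusted p = 0.0682 by limma and 0.0147 with the block), and COL1A2 of -1.28 (0.0614 and 0.0169). DCN went the other way, higher in 5 of 5 lines but not called (1.01, 0.268 and 0.0529). THBS4 (-1.22) and FMOD (-1.31) were lower in 4 of 5 lines and not called in either fit. Among markers of other cells, 3 of 6 mural cell genes (RGS5, CSPG4 and DES) and 1 of 6 epithelial genes (CDH1) were lower, and CD68 of 7 leukocyte genes and ADIPOQ of 3 adipocyte genes were higher. The mural sums were 3956 to 37551 without and 4651 to 13498 with IL-1β, the epithelial sums 539 to 1574 and 45.4 to 444, the leukocyte sums 61.3 to 1768 and 171 to 1944, and the adipocyte sums 17.8 to 167 and 362 to 2326. The largest mean counts in these lists were those of MYH11, CDH1, CD14 and ADIPOQ, so the sums mainly follow these genes. MYH11 and CD14 were not called in either fit, and CD14 ran from 0 to 1662 without and 0 to 1682 with IL-1β. CD14 went from 309 to 702 in line 2, 0 to 410 in line 4 and 0 to 1216 in line 5. In line 1 it was at 1662 and 1682, and in line 3 at 0 in both libraries. EPCAM, KRT5, CD3E and LEP were at the value of 0 reads in all libraries, and PTPRC and CSF1R were above it in 1 library each. None of the 4 tested endothelial genes (0) and not the 1 tested Schwann cell gene (0) were called by limma, with 2 and 0 at an unadjusted p below 0.05, and the sums of their lists were at most 45.9 and 12.8. The part of these markers in the results was not tested.

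Of the 48 members, 40 had enough reads to test, and 10 of these were called, with 4 higher and 6 lower in the IL-1β+PF group. This is 25.0% of the tested members, against 6.68% of all tested genes, of which 3.11% were higher and 3.57% lower. With the replicate block 12 members were called, 5 higher and 7 lower, which is 30.0% against 8.26% of all tested genes (4.01% higher and 4.25% lower). FGF18 and FLRT3 were the members added by the block. The groups did not overlap for 10 of the 40 members (25.0%), against 12.7% of all tested genes, 6.29% with the IL-1β+PF group above and 6.41% with it below. Over the 40 members the median log2 fold change was 0.09, and over all tested genes it was -0.01, and the median size of the change, whatever its direction, was 0.48 and 0.25. These counts describe the members and were not tested as a set.

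**Figure D1:**
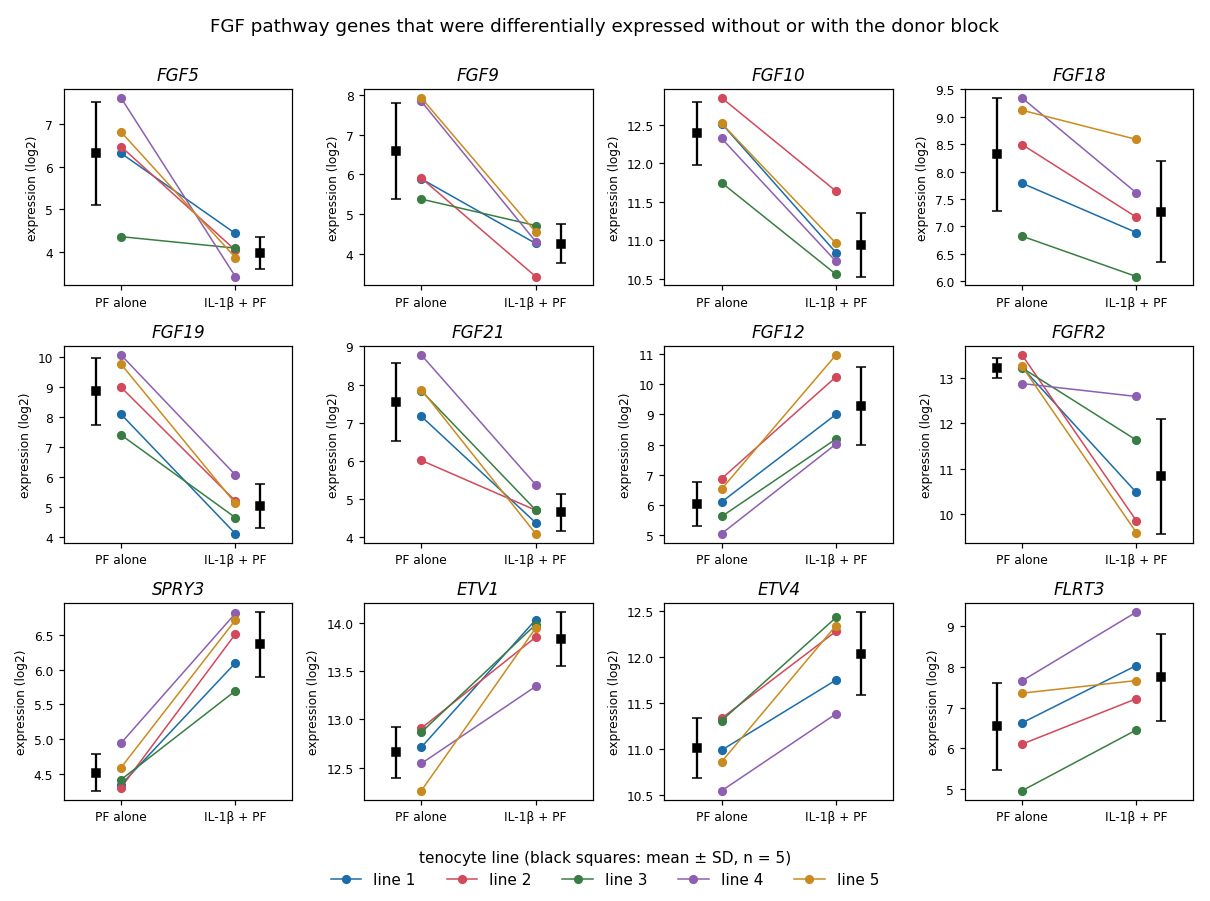
Expression (log2, y axes differ between panels and do not start at 0) of the 12 members called without or with the replicate block, in the PF group (PF alone) and the IL-1β+PF group (IL-1β + PF). Each coloured line joins the 2 libraries of a tenocyte line, and black squares with bars show the mean ± SD of 5 libraries. FGF5, FGF9, FGF10, FGF18, FGF19, FGF21 and FGFR2 were lower and FGF12, SPRY3, ETV1, ETV4 and FLRT3 higher in the IL-1β+PF group in all 5 lines.

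FGF19 and FGF21, ligands that circulate as hormones, fell. FGF19 represses bile acid synthesis when released by the ileum, and FGF21 is a metabolic hormone best known from liver. FGF19 expression in lines 1 to 5 was 8.10, 9.00, 7.41, 10.07 and 9.77 on the log2 scale in the PF group and 4.11, 5.20, 4.65, 6.07 and 5.12 in the IL-1β+PF group. The lowest library without IL-1β thus stood above the highest library with it. FGF19 fell by 3.83 on the log2 scale (SE 0.52, adjusted p = 0.00106 by limma, 5 of 5 lines). In normalised counts the libraries held 149 to 1055 in the PF group and 2.45 to 47.5 in the IL-1β+PF group, and the mean was 30.0-fold lower.

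FGF21 stood at 7.17, 6.02, 7.84, 8.77 and 7.87 in the PF group and at 4.39, 4.71, 4.72, 5.38 and 4.10 in the IL-1β+PF group. The groups did not overlap, and line 2, which had the lowest FGF21 without IL-1β, also had the smallest fall. FGF21 fell by 2.87 (SE 0.45, adjusted p = 0.00220 by limma), and its mean normalised count was 20.8-fold lower. FGF23, the phosphate-regulating hormone, was at the value of 0 reads in all 5 libraries without IL-1β and in 2 with it. No library had more than 2 estimated reads of it, so it was not tested, and with both groups below 3 reads no fold is given.

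The klotho proteins make cells responsive to these hormones, KL to FGF23 and KLB to FGF19 and FGF21. Both had few reads. KL had reads in 6 of the 10 libraries, with at most 12 estimated reads, and KLB in 6 with at most 6. Their log2 fold changes were -0.38 (95% interval -1.14 to 0.37) and 0.063 (-0.53 to 0.65), and neither passed the test (adjusted p = 0.507 and 0.906 by limma). With this few reads there was little room to detect a fall.

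Among ligands that act locally, FGF10, FGF9 and FGF5 fell. FGF10 is a signal from mesenchyme to epithelium that is needed for lung and limb outgrowth, FGF9 takes part in skeletal and gonad development, and FGF5 limits hair growth. FGF10 was at 12.51, 12.85, 11.75, 12.32 and 12.52 in lines 1 to 5 in the PF group and at 10.84, 11.64, 10.56, 10.73 and 10.96 in the IL-1β+PF group. The fall was similar in every line, between -1.67 and -1.19, although line 2 was the highest and line 3 the lowest in both groups. FGF10 fell by 1.44 (SE 0.23, adjusted p = 0.00224 by limma, 5 of 5 lines).

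FGF9 was at 5.89, 5.91, 5.38, 7.84 and 7.92 in the PF group and at 4.27, 3.43, 4.71, 4.31 and 4.55 in the IL-1β+PF group. Lines 4 and 5 had far more FGF9 than the others without IL-1β, and the lines were close to each other with it. The normalised counts were 22.8 to 222 against 0 to 9.09, and FGF9 fell by 2.33 on the log2 scale (SE 0.51, adjusted p = 0.0116 by limma). FGF5 was at 6.31, 6.47, 4.36, 7.61 and 6.81 against 4.44, 4.05, 4.10, 3.43 and 3.88. Line 3 stood apart without IL-1β, at 4.36, and its difference was only -0.27, against -4.17 in line 4, so the groups overlapped. FGF5 fell by 2.33 on the log2 scale (SE 0.49, adjusted p = 0.00977 by limma). In normalised counts FGF5 was at 4.66 to 174 against 0 to 5.46, with a mean 36.8-fold lower, and that of FGF9 was 22.4-fold lower. FGF5 was not called without line 2 (adjusted p = 0.0533) or without line 5 (adjusted p = 0.0573), fits that leave 4 lines.

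FGF18, a regulator of cartilage and bone growth, was lower in the IL-1β+PF group in 5 of 5 lines but called only with the block. Its levels were 7.79, 8.49, 6.82, 9.35 and 9.12 without IL-1β and 6.89, 7.17, 6.09, 7.61 and 8.59 with it. Lines 4 and 5 were high and line 3 was low in both groups, so that 69.2% of the variance of FGF18 lay between lines. Its log2 fold change of -1.04 had a 95% interval of -2.23 to 0.14 and an adjusted p of 0.222 by limma. By limma with the replicate block the interval was -1.50 to -0.59 and the adjusted p was 0.00868.

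The other local ligands did not pass. FGF7, the keratinocyte growth factor made by fibroblasts, was at 15.14 ± 0.67 (SD, n = 5) and 15.35 ± 0.28 (SD, n = 5), with a log2 fold change of 0.20 (95% interval -0.45 to 0.85). In line 4, FGF7 was at 14.00 without and 14.90 with IL-1β, while every other line moved by 0.22 or less. FGF2, a widely expressed growth factor stored in matrix, had a log2 fold change of 0.33 (-0.13 to 0.80), with 5 of 5 lines higher, though line 3 by less than 0.01. FGF22, a ligand known from synapse formation, had one of 0.37 (-0.052 to 0.79), with 15 to 41 estimated reads per library. It was also higher in 5 of 5 lines, though line 3 again by less than 0.01. FGF16, which takes part in heart development, was -1.02 (-1.98 to -0.060, adjusted p = 0.144 by limma) with line 4 moving in the opposite direction to the rest, and it was called in the fit without the line 4 library with IL-1β (log2 fold change -1.34, adjusted p = 0.0322 by limma).

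FGF1, a ligand for all FGF receptors, moved in different directions between lines. It was at 6.92, 7.89, 6.04, 6.25 and 5.45 without IL-1β and at 7.34, 10.39, 7.67, 5.16 and 7.47 with it. Line 2 rose by 2.50 and line 4 differed by -1.09, and the log2 fold change of 1.10 had a 95% interval of -0.66 to 2.85 (adjusted p = 0.404 by limma). FGF3, FGF6 and FGF20 were at the value of 0 reads in all 10 libraries. FGF4, FGF8 and FGF17 were above it in 1 to 3 libraries, with at most 4 estimated reads, and were not tested. FGF4 and FGF8 are the ligands known from tendon development.

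**Figure D2:**
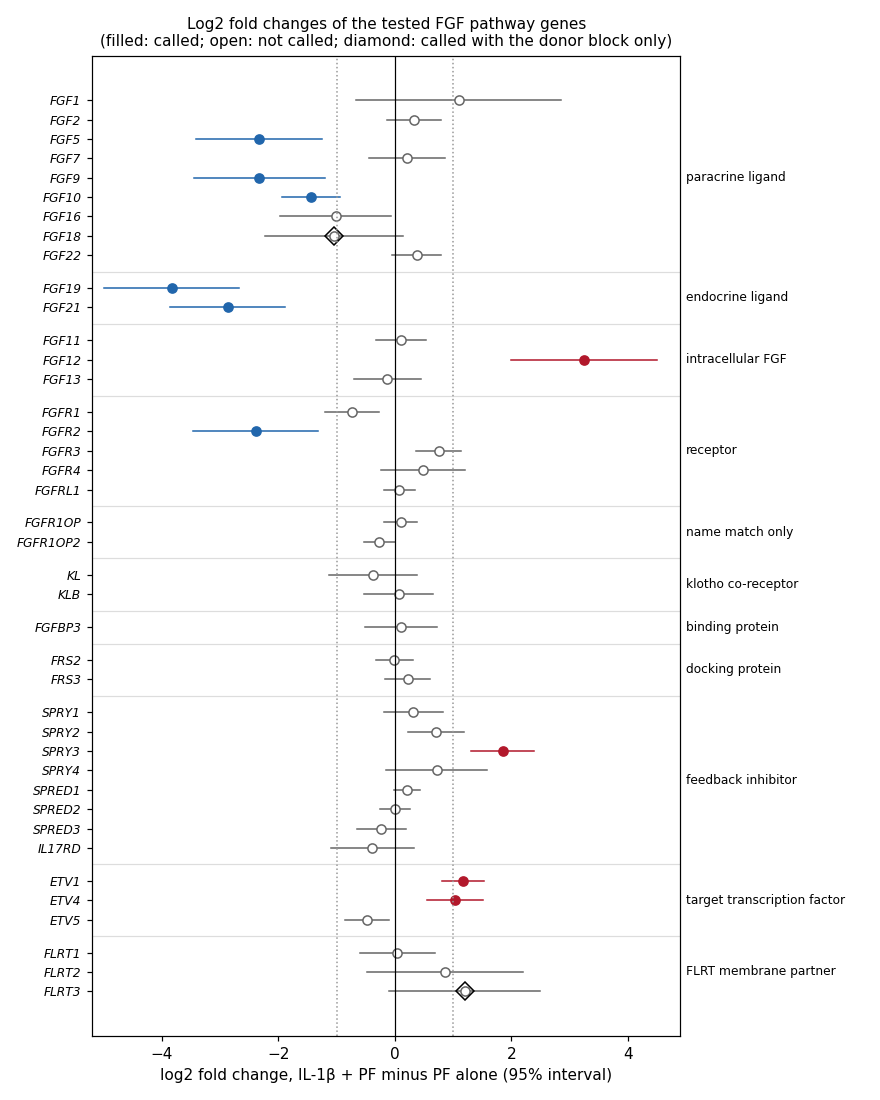
Log2 fold change (IL-1β+PF minus PF) of the 40 tested members with its 95% interval by limma, grouped by role, with dotted lines at -1 and 1. Filled blue and red points were called lower and higher, open points were not called, and diamonds mark FGF18 and FLRT3, called with the replicate block only. FGF19 (-3.83) and FGF12 (3.24) lie at the ends.

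FGF11 to FGF14 stay inside the cell and are known as partners of voltage-gated sodium channels rather than as ligands. FGF12 had the largest rise of all members on the deposited scale. It was at 6.11, 6.88, 5.63, 5.06 and 6.54 in the PF group and at 9.00, 10.25, 8.19, 8.02 and 10.97 in the IL-1β+PF group. Every library with IL-1β was above every library without it, and line 5 showed the largest rise, of 4.43. The fitted log2 fold change was 3.24 (SE 0.57, adjusted p = 0.00398 by limma), and the mean normalised count was 15.8-fold higher. FGF11 (0.10, 95% interval -0.33 to 0.53) and FGF13 (-0.13, -0.71 to 0.44) did not pass, and FGF14 had at most 1 estimated read in any library.

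Of the receptors, FGFR2 fell. Its epithelial form binds FGF7 and FGF10 and its mesenchymal form binds other FGFs, and the deposited values are per gene and do not separate these forms. FGFR2 was at 13.24, 13.51, 13.23, 12.88 and 13.26 in lines 1 to 5 in the PF group, a narrow range, and at 10.48, 9.86, 11.63, 12.60 and 9.60 in the IL-1β+PF group. The libraries with IL-1β were spread widely, since line 4 differed by only -0.28 while line 5 differed by -3.66 and line 2 by -3.65. The highest of them was still below the lowest library without IL-1β. FGFR2 fell by 2.39 (SE 0.49, adjusted p = 0.00821 by limma). It was not called without line 1 (adjusted p = 0.0548) or without line 2 (adjusted p = 0.0516).

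FGFR1, the main receptor of mesenchymal cells, was lower and FGFR3, a brake on cartilage growth, was higher, but both changed by less than the minimum fold change. FGFR1 was at 13.32, 13.87, 13.45, 13.21 and 13.79 and at 12.22, 12.95, 13.41, 12.71 and 12.63, with a log2 fold change of -0.74 (95% interval -1.21 to -0.28, adjusted p = 0.0355 by limma). Line 3 hardly moved, at -0.041. Lines 3 and 4 had the smallest differences of both FGFR1 and FGFR2. FGFR3 was at 7.52, 8.04, 7.83, 8.11 and 8.15 and at 8.51, 8.67, 8.34, 8.94 and 8.94, groups that did not overlap, with a log2 fold change of 0.75 (0.37 to 1.14, adjusted p = 0.0152 by limma). FGFR4, the liver receptor for FGF19, was 0.48 (-0.23 to 1.20) and FGFRL1, a receptor without a kinase domain, was 0.078 (-0.18 to 0.34), and neither passed.

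With no minimum fold change, 12 members passed at an adjusted p below 0.05 by limma, 5 higher and 7 lower. This is 30.0% of the tested members, against 15.5% of all tested genes, 7.57% higher and 7.89% lower. With the replicate block there were 16, 7 higher and 9 lower, which is 40.0% against 22.2% of all tested genes (10.9% higher and 11.3% lower). FGFR1 and FGFR3 passed in both fits, and SPRY2 and ETV5 only with the block.

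ETV1 and ETV4 rose and ETV5 did not. All 3 belong to the PEA3 group of ETS transcription factors, which are read as targets of FGF and ERK signalling. ETV1 was at 12.71, 12.91, 12.87, 12.54 and 12.26 in the PF group and at 14.03, 13.85, 13.98, 13.34 and 13.94 in the IL-1β+PF group. Line 4 was the lowest with IL-1β, and the groups did not overlap. The fitted log2 fold change of ETV1 was 1.17 (SE 0.16, adjusted p = 0.00114 by limma, 5 of 5 lines).

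ETV4 was at 10.99, 11.33, 11.31, 10.55 and 10.86 and at 11.75, 12.28, 12.43, 11.38 and 12.34, with a log2 fold change of 1.03 (SE 0.22, adjusted p = 0.0102 by limma). The groups did not overlap, but the change lay so close to the minimum that it fell below it under quantile normalization (to 0.995) and in 6 of the 15 fits without 1 library or 1 line, with values from 0.91 to 0.99 (without line 5 the adjusted p was 0.0629). ETV5 was at 10.85, 11.52, 11.31, 11.05 and 10.81 and at 10.31, 10.90, 10.71, 10.34 and 10.90, lower in 4 of 5 lines. Its log2 fold change was -0.48 (95% interval -0.85 to -0.098), with an adjusted p of 0.0870 by limma and 0.0318 with the replicate block. The interval of ETV5 lies below 0 while those of ETV1 (0.81 to 1.53) and ETV4 (0.54 to 1.51) lie above it. The difference between these genes was not tested.

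Of the 8 feedback inhibitors, SPRY3 was called higher (12.5%, against 6.68% of all tested genes), and 7 did not pass the call. SPRY3 was at 4.34, 4.30, 4.41, 4.94 and 4.59 in the PF group and at 6.09, 6.51, 5.69, 6.81 and 6.71 in the IL-1β+PF group. No library of one group reached the other group, and line 4 was the highest in both. The fitted log2 fold change was 1.85 (SE 0.25, adjusted p = 9.71e-04 by limma). The normalised counts were low, 4.01 to 12.9 against 32.4 to 91.5, and their mean was 9.69-fold higher.

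SPRY2 was at 8.39, 8.93, 8.62, 7.97 and 8.30 and at 9.15, 9.26, 8.99, 8.65 and 9.69, higher in 5 of 5 lines. Its log2 fold change of 0.71 (95% interval 0.22 to 1.19) had an adjusted p of 0.0518 by limma and of 0.0217 with the replicate block. SPRY4 was higher in 4 lines by 0.65 to 1.34 and in line 4 the difference was -0.36. Over all libraries its log2 fold change was 0.72 (-0.15 to 1.59, adjusted p = 0.254 by limma), and it was called in the fit without the line 4 library with IL-1β (1.11, adjusted p = 0.00953 by limma). SPRY1 had a log2 fold change of 0.32 (-0.18 to 0.82).

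SPRED1 was 0.20 (95% interval -0.013 to 0.42), SPRED2 was -0.00061 (-0.25 to 0.25) and SPRED3 was -0.23 (-0.66 to 0.19). The intervals of all 3 lie within the minimum fold change of 1. IL17RD, a membrane inhibitor also known as SEF, was -0.39 (-1.10 to 0.32). It rose by 1.11 in line 3 and was lower in the 4 other lines. The docking proteins FRS2 (-0.013, -0.33 to 0.31) and FRS3 (0.22, -0.17 to 0.61) did not pass, and nor did FGFBP3 (0.10, -0.52 to 0.72), one of the proteins that carry FGFs from matrix.

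FLRT proteins span the membrane and bind both FGF receptors and guidance receptors. FLRT3 was at 6.63, 6.10, 4.96, 7.65 and 7.35 and at 8.03, 7.22, 6.45, 9.34 and 7.66, higher in 5 of 5 lines. The lines kept wide gaps between them, with line 3 lowest and line 4 highest in both groups, and 67.2% of the variance lay between lines. The fitted log2 fold change was 1.20 (95% interval -0.094 to 2.50), with an adjusted p of 0.201 by limma. By limma with the replicate block the interval was 0.69 to 1.71 and the adjusted p was 0.00788. FLRT2 was 0.86 (-0.47 to 2.20) and rose mainly in line 4, by 2.85, where the other lines moved by -0.09 to 0.72. FLRT1 had at most 14 estimated reads and did not pass (0.035, -0.61 to 0.68). FGFR1OP, a centrosomal protein, was 0.095 (-0.18 to 0.37) and FGFR1OP2 was -0.27 (-0.53 to -0.0067), and neither was called.

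**Figure D3:**
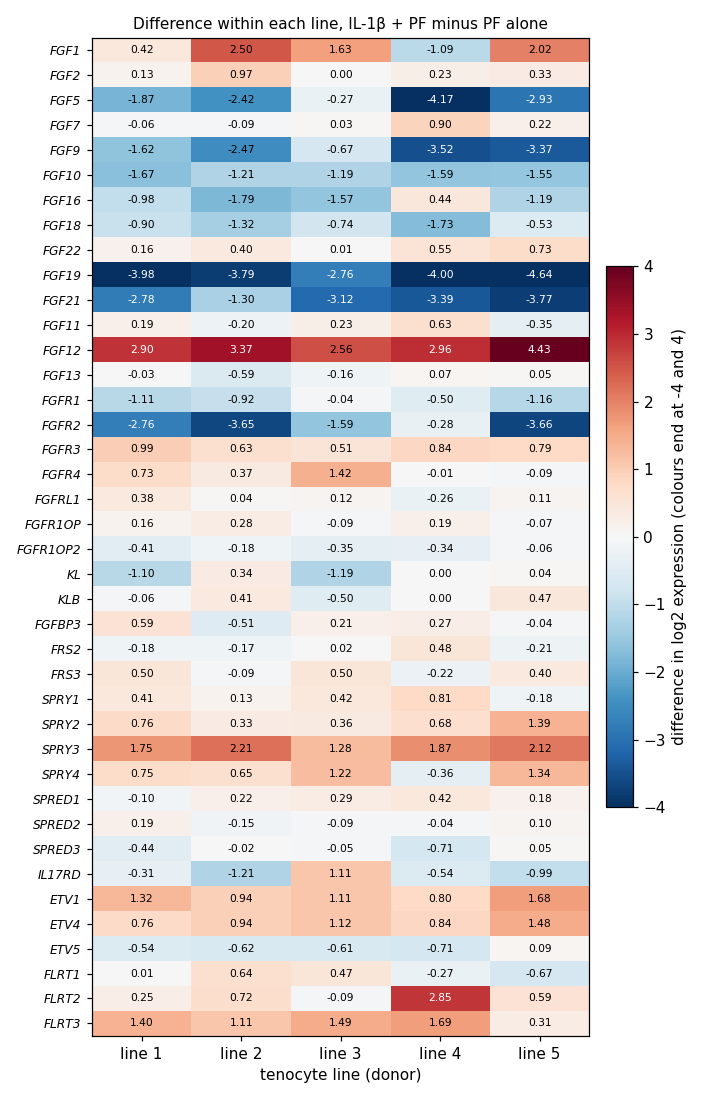
Difference in log2 expression between IL-1β+PF and PF within each of the 5 tenocyte lines, for the 40 tested members. Blue is lower and red is higher with IL-1β. FGF19, FGF21 and FGF10 were lower and FGF12, SPRY3 and ETV1 higher in every line, while FGFR2 in line 4 (-0.28), SPRY4 in line 4 (-0.36) and FLRT2 in line 4 (2.85) differ from the other lines.

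The lines differed in how far some members moved. Of the 40 tested members, 18 changed in the same direction in all 5 lines, which is 45.0% against 32.7% of all tested genes. Line 4 had the smallest difference of FGFR2, the largest of FGF5 and FLRT2, and a direction of its own in FGF1, FGF16 and SPRY4. Line 3 had the smallest differences of FGF5, FGF9 and FGFR1, and the only rise of IL17RD. Without IL-1β, FGF5 was lowest in line 3 (4.36) and highest in line 4 (7.61), and FGF9 was lowest in line 3 (5.38). With IL-1β no line was above 4.44 for FGF5 or 4.71 for FGF9, near the value of 0 reads. How far these genes could fall was thus limited by their level without IL-1β. In a split of each gene's variance into group, line and remainder, the median share between groups was 26.4% over the members and 19.1% over all tested genes, and the median share between lines was 46.6% and 45.8%. The share between groups was highest for SPRY3 (88.2%), ETV1 (85.2%) and FGF19 (83.8%). The share between lines was highest for FGF13 (87.5%), SPRED2 (83.8%) and KLB (81.0%).

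Other genes of the pathway were taken from a list of 72, of which 68 were tested. Of these 3 were called higher and 3 lower, which is 8.82% against 6.68% of all tested genes, and 3 higher and 5 lower with the replicate block, which is 11.8% against 8.26%. Without line 2, and likewise without line 5, only 1 was called lower. None of 9 adaptors and enzymes at the receptor (0) and none of 14 genes of the RAS-MAPK cascade (0) were called in either fit by limma, with 2 and 9 at an unadjusted p below 0.05. With no minimum fold change, 1 of the adaptors (11.1%) and 4 of the cascade genes (28.6%) passed, against 15.5% of all tested genes. Their log2 fold changes ran from -0.50 for NF1 to 0.77 for RPS6KA1.

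Of 15 genes known to respond to ERK, IER3 and FOSL1 rose. This is 13.3%, against 6.68% of all tested genes by limma and 8.26% with the replicate block. IER3, an early response gene that is also a target of NFκB, was at 11.06, 11.53, 11.92, 11.03 and 11.06 and at 15.65, 15.83, 14.58, 14.46 and 16.38, with a log2 fold change of 4.06 (adjusted p = 1.16e-04 by limma). FOSL1, a member of the AP-1 family, was at 10.34 to 11.02 and at 11.44 to 12.53, with a log2 fold change of 1.40 (adjusted p = 0.00120). The groups did not overlap for either gene. The other 13 were not called, with log2 fold changes from -0.32 for IER2 to 0.94 for CCND1. DUSP5, DUSP6, PHLDA1 and CCND1 were higher in 4 of 5 lines and lower in line 4, with differences there of -0.94, -1.45, -0.76 and -0.87. Not all genes of the list fell in line 4, and EGR1 and ETS1 rose there by 0.84 each. The cause was not tested.

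Heparan sulphate holds FGFs at the cell surface and presents them to their receptors. Of 11 tested proteins that carry it, the syndecans SDC3 and SDC2 fell, which is 18.2% against 6.68% of all tested genes. Their log2 fold changes were -1.87 and -1.61 (adjusted p = 0.0146 and 0.0265 by limma). The groups overlapped for SDC2, which differed by only -0.40 in line 4. With the replicate block 4 were lower (36.4%, against 8.26% of all tested genes). The added genes were the glypican GPC3 (-1.91, adjusted p = 0.0353) and the basement membrane proteoglycan HSPG2 (-1.12, adjusted p = 0.0367). GPC3 had normalised counts of 6.54 to 678 without and 0 to 38.2 with IL-1β. Its differences ran from -4.35 in line 1 to -0.43 in line 3, and HSPG2 rose by 0.26 in line 3. Not all of these proteins were lower. SDC1 was higher in 5 of 5 lines (0.54, adjusted p = 0.0450 by limma), by less than the minimum fold change. GPC6 was higher in 4 of 5 lines and not called (1.42, adjusted p = 0.217 by limma). Of 19 tested enzymes that build or trim the chains, 2 were called (10.5%, against 6.68% of all tested genes). Both of them are 3-O-sulphotransferases, and they moved in opposite directions. None of these lists was tested as a set. HS3ST1 was at 10.23, 9.29, 8.92, 9.83 and 9.46 and at 6.77, 7.28, 6.82, 6.49 and 7.13, and HS3ST3B1 was at 9.24, 8.88, 8.58, 7.40 and 8.38 and at 10.80, 10.56, 10.10, 9.45 and 10.75. Both were without overlap between the groups, with log2 fold changes of -2.65 (adjusted p = 1.60e-04 by limma) and 1.84 (adjusted p = 0.00554).

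**Figure D4:**
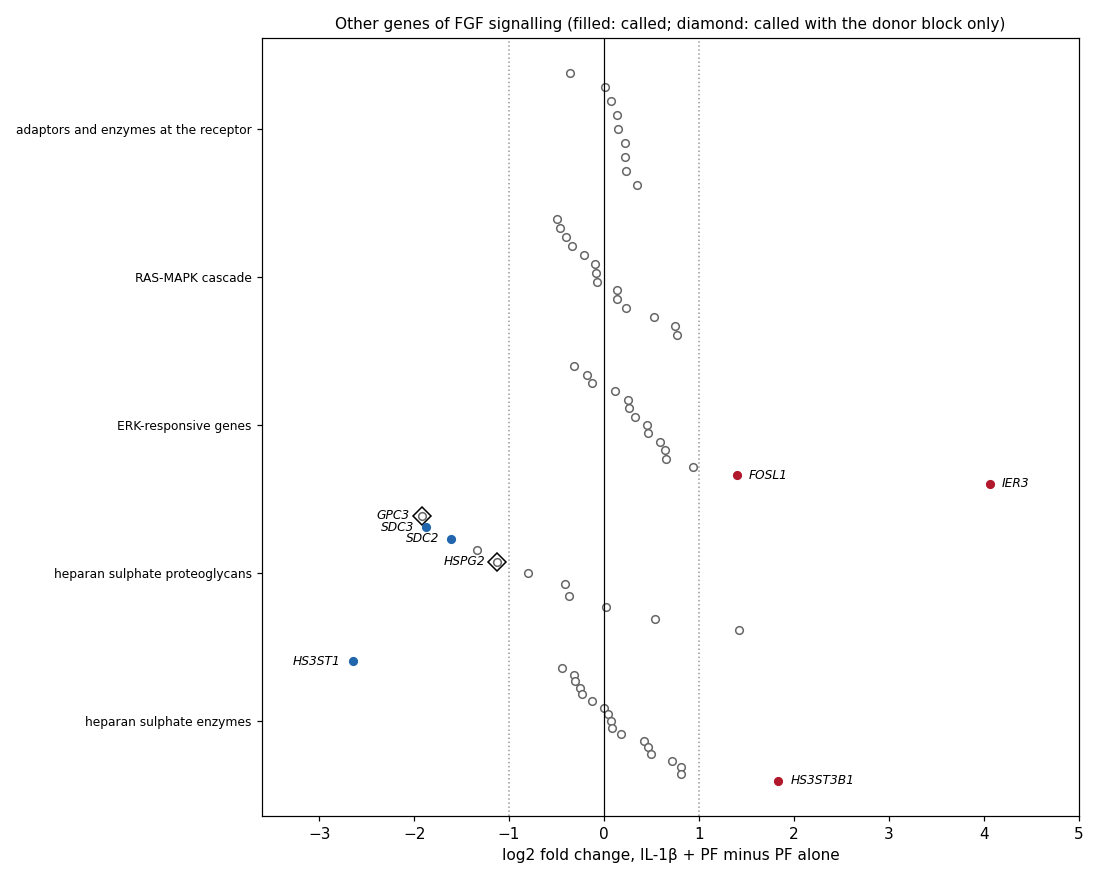
Log2 fold changes (IL-1β+PF minus PF) of the 68 tested genes of the other FGF pathway lists, with dotted lines at -1 and 1. Filled points were called and diamonds mark genes called with the replicate block only. IER3 (4.06) and HS3ST1 (-2.65) lie at the ends, and no gene of the adaptor and RAS-MAPK lists passes the dotted lines.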

How the data were processed

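RNA sequencing of 10 libraries was used. Per the labels and the study's methods, the authors checked reads with FastQC (version 0.11.9), assigned them to the EquCab3.0 transcriptome with Salmon (version 1.8, GC-bias correction), summed them to genes with tximport and tested them with DESeq2 (version 1.36). The deposited values are log2 values, recognised as variance-stabilized from the shared lowest value of 3.433. Normalised counts were recovered by inverting that transformation, and reads from the spacing of low values, of which 67.3% to 84.1% per library lay within 0.15 of a whole read.

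The model, limma 3.58.1 under R 4.3.3 with the variance trended on the mean, had no term for the donor, because the methods state none. It was fitted again with the line as a block. Libraries of the same line, which share a horse, deviated together from their group means (correlation across genes 0.367 to 0.506 in 5 pairs). The mean between lines was -0.107. Deviations from a group mean sum to 0, which pushes this mean below 0, so it is no separate result. Members called in either fit are given in full (at most 16, by adjusted p), other tested members with their interval, and from the pathway list at most 4 called genes with the largest rise and 4 with the largest fall. GPC3 and HSPG2, called with the block only, were named after their values were seen. SDC1, GPC6, DUSP5, DUSP6, PHLDA1, CCND1, EGR1 and ETS1, called in neither fit, were likewise named afterwards. Alternatives were other thresholds, filters, scalings and variance models, the block, and leaving out each library or line. Members, lists and tests were chosen with earlier results of these data known. Of the 48 symbols, 47 were found in a RefSeq gene table of another horse assembly. No positions or sequences are given, and no column was left out.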

Additional observations from a re-analysis of the deposited data

Results flagged for a closer look

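In 5 of 86 groups of 5 libraries checked over the members, a library stood far from the 4 others of its group. Chance would give about 4.3 (1 in 20) for normally spread values, which those near the value of 0 reads are not. With IL-1β plus PF-06650833, ETV1 was at 13.34 in line 4, against 13.85 to 14.03 in the other lines. In the same group IL17RD was at 9.27 in line 3, against 7.74 to 8.16. The other 3 rest on very few reads in line 3 while the other 4 libraries of the group were at the value of 0 reads. Such a group is flagged whatever the 1 value is, so the 5 found cannot be weighed against 4.3. They are FGF17 with IL-1β plus PF-06650833 (4.38), and FGF4 (3.94) and FGF8 (3.95) with PF-06650833 alone. The cause was not tested for these libraries.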

How the results depend on the processing

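Of the 10 members called, 7 were called under all 27 alternatives, and the others (FGF5, FGFR2 and ETV4) lost the call under those named above. Of the 30 not called, 22 stayed uncalled under every alternative they were tested in. FGF13, KL, KLB and FLRT1 were left out by the filter on a mean normalised count of at least 10. The direction held for 31 of 40 members. The 9 others were not called. Under median centring FRS2 turned to 0.017 and SPRED2 to 0.029. Over the 15 fits without 1 library or 1 line, the log2 fold changes ran as follows: FGF7 -0.084 to 0.31, FGF11 -0.031 to 0.22, FGF13 -0.30 to 0.012, FGFRL1 -0.015 to 0.16, KLB -0.094 to 0.20, FGFBP3 -0.080 to 0.26, FRS2 -0.13 to 0.089, SPRED2 -0.068 to 0.061 and FLRT1 -0.16 to 0.25. The causes were not tested.

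With the replicate block but without the minimum fold change, 7 members were higher, against 4, and of the pathway list 12 genes were higher and 11 lower, against 3 each. Without the minimum alone these were 10 and 6. With the replicate block 5 pathway genes were lower, and 5 also on log2(normalised count + 1) values. Among members, pathway genes and markers, the replicate block changed no call other than those given. In the 15 fits, the members called higher numbered 3 to 5 and those lower 4 to 7, and the pathway genes 3 to 5 and 1 to 5. The single lower pathway gene was that without line 2 and that without line 5, and the 5 higher and 5 lower were those without the line 4 library with IL-1β. No library had over 4 estimated reads of the 8 members not tested, or over 14 of KL, KLB, FGF13 and FLRT1, so depth limits what can be said of them.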
